A study of Homo sapiens with 9 samples.

Results

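Retinoic acid is made, broken down, carried and sensed by a small set of proteins, and the 10 genes described here encode the enzymes, receptors and binding proteins of that set that were chosen by name. They were the synthesis enzymes ALDH1A2 and ALDH1A3, the breakdown enzymes CYP26A1, CYP26B1 and CYP26C1, the nuclear receptors RARA, RARB and RARG, and the binding proteins CRABP1 and CRABP2. All 10 were found among the 18970 gene symbols of both count tables, and each was read in 9 libraries by time and culture. The rule names genes by their role and uses no measured value, though it was set with earlier results of these data known.

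Cells take up vitamin A (retinol), oxidise it to retinal with retinol dehydrogenases such as RDH10, and oxidise retinal to retinoic acid with the ALDH1A enzymes, while DHRS3 turns retinal back into retinol and the CYP26 enzymes inactivate retinoic acid. In the cytoplasm the CRABP proteins bind retinoic acid, and in the nucleus it binds heterodimers of a retinoic acid receptor (RAR) with a retinoid X receptor (RXR), which sit on DNA at direct repeats of a short sequence and turn from repression to activation with ligand. The developing face is a classical target of retinoic acid, and both a lack and an excess of it disturb cranial neural crest cells and the skeleton they form.

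The libraries came from cranial neural crest cells (CNCCs) made by differentiating the established human embryonic stem cell line H9, and asked how transcription changed after acute loss of the transcription factor SOX9. In all groups, controls included, both SOX9 alleles carried a C-terminal FKBP12-F36V, mNeonGreen and V5 tag, in 2 edited clones named S9CC13 and S9CC47. The small molecule dTAGV-1 brings the tagged protein to a ubiquitin ligase. Groups were 0h (DMSO), 3h and 24h of 500 nM dTAGV-1, with relative SOX9 levels labelled as 100% for 0h and 0% for both later times. For each time there was 1 library from each of the same 3 cultures, S9CC13_R6, S9CC47_R5 and S9CC47_R6, named by clone and differentiation batch, so that clone S9CC13 and batch R5 were represented by 1 culture each. The culture medium held a supplement with vitamin A at every step. RNA made during the last 2 h was labelled with 100 uM 4-thiouridine (4sU), which reads as T>C conversions in libraries of transcript 3′ ends (SLAM-seq). T>C reads thus follow newly made RNA, and total reads follow the RNA present. All values below are deposited read counts, given as such, as CPM (counts scaled so that all libraries have the same total), or as normalized reads (divided by a DESeq2 size factor).

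Libraries held 16955633 to 28782678 total reads and 3130673 to 5475800 T>C reads, which made up 15.9% to 21.3% of a library. Of 20 cranial neural crest markers 19 had a median of at least 1 CPM in total reads, the exception being SOX10 with 0.0468 CPM. The summed level of the 20, SOX9's own RNA included, was 4659 to 4785 CPM at 0h, 5519 to 5832 at 3h and 6761 to 7200 at 24h. Mean normalized total reads went from 16727 at 0h to 37294 at 24h for SOX9, and from 13668 to 31011 for MSX1. In total reads at 24h, 9 of the 19 crest markers tested were called higher and 1 lower, against 15.0% of all genes tested called. Of 8 pluripotency markers 2 had a median of at least 1 CPM, LIN28A, shared by early progenitors, with 290.1 CPM, and DPPA4 with 36.7 CPM. The pluripotency factor POU5F1 had 1 read in all libraries together. The summed pluripotency list was 350.7 to 415.1 CPM at 0h and 281.9 to 306.9 at 24h, neural markers stood at 17.0 to 23.3 and 15.2 to 18.0, chondrocyte markers at 73.9 to 78.3 and 51.6 to 65.2, and glia and melanocyte markers at 5.13 to 7.85 and 2.69 to 4.07. The summed levels of the crest, pluripotency, chondrocyte, and glia and melanocyte lists thus moved with time without overlap between 0h and 24h, and their part in the members' changes was not tested. SOX9 was degraded as protein, so its RNA does not check the labels, and its normalized T>C reads rose by 0.77 ± 0.08 (log2, SE) at 3h and 1.15 ± 0.08 at 24h. One library property moved with time. Genes above the 75th percentile of GC content in the last 300 transcript bases stood, relative to genes below the 25th percentile, at 0.01 to 0.15 (log2 T>C reads) at 0h, at -0.13 to 0.24 at 3h and at -0.36 to -0.08 at 24h. Where a fit with this GC tilt as covariate, in place of the surrogate variable, ended a call, that is said beside the result, and the part of the tilt in the result was not tested.

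**Figure D1:**
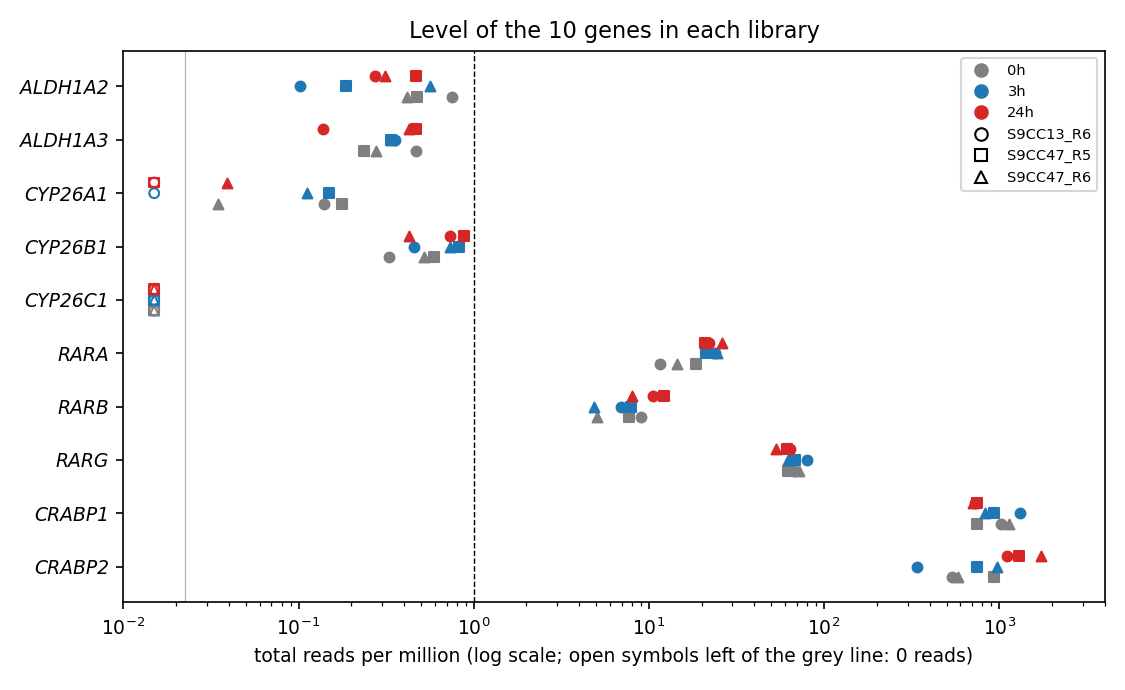
CPM of total reads (log scale) of the 10 genes in each of the 9 libraries, coloured by time of dTAGV-1 and shaped by culture, with the dashed line at 1 CPM and open symbols at the left for libraries with 0 reads. The synthesis and breakdown enzymes lie below 1 CPM in every library, the receptors between 4.83 and 79.6, and the binding proteins between 337.2 and 1725.

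Response elements illustrate how the pathway reads its own ligand. RARB and CYP26A1 are textbook targets of retinoic acid, and the receptor dimer binds a direct repeat of the 6-base core spaced by 5 bases. In the windows of 250 bases before and 50 after each annotated start (RefSeq, GRCh38.p14), such a repeat, searched on both strands as any pair of the cores AGGTCA or AGTTCA or GGTTCA or GGGTCA in the same orientation with any 5 bases between them, was present in 31 of 35116 windows, 0.0883%. Among 17 windows of the 10 genes it was found in 2, shown here because they are the only members with a sequence of this kind near the start, with the repeat and its spacer in capitals and 6 flanking bases on each side, read on the strand that carries the repeat.
RARB, chr3:25428204-25428232, plus strand: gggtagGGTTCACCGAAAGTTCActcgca
CYP26A1, chr10:93073797-93073825, minus strand: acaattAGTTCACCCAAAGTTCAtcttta
The RARB repeat spans bases -53 to -37 and the CYP26A1 repeat bases -90 to -74 relative to the transcript start. Of these genes RARB was read in every library and CYP26A1 in 6 of 9. Of the 29 genes with such a repeat, 8 were tested in T>C reads. Of these 1, RARB, was called, only for 24h against 3h, where 1.14% of all genes tested were called. In total reads, 2 of 8 were called at 24h against 15.0% of all genes tested. For 24h against 3h 2 of 8 were called against 5.39%. RARB was 1 of the 2 each time, so it was not the only gene with such a repeat that was called.

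The synthesis enzymes were close to the limit of detection. ALDH1A2 (chr15:57953424-58497866, minus strand), the main retinal oxidase of the early embryo, had, with the cultures always in the order S9CC13_R6, S9CC47_R5, S9CC47_R6, total reads of 16, 8 and 12 at 0h, then 2, 5 and 10 at 3h and 6, 9 and 8 at 24h. Its times overlapped, and its median over libraries was 0.417 CPM. ALDH1A3 (chr15:100877714-100916626, plus strand), the enzyme of the frontonasal region and eye, had 10, 4 and 8 total reads at 0h, 7, 9 and 6 at 3h and 3, 9 and 11 at 24h, again with overlap between all times. Of these reads, 15 of 76 for ALDH1A2 and 19 of 67 for ALDH1A3 carried T>C conversions. Both lay under the filter of 1 CPM in at least 3 libraries, in both measures, and were not tested.

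Of the breakdown enzymes CYP26A1 and CYP26C1 were lower still. CYP26B1 was the highest of all these enzymes, with a median of 0.590 CPM against 0.417 for ALDH1A2 and 0.337 for ALDH1A3. CYP26A1 (chr10:93073475-93077885, plus strand), the enzyme that retinoic acid itself induces most sharply in many cells, had 3, 3 and 1 total reads at 0h, 0, 4 and 2 at 3h and 0, 0 and 1 at 24h, a sum of 14. CYP26C1, which lies beside it (chr10:93060798-93069540, plus strand), had 0 reads in all 9 libraries of both tables. A count of 0 over all libraries allows up to 3 reads, or 0.0151 CPM, which covers counting error only. CYP26B1 (chr2:72129238-72147862, minus strand), a breakdown enzyme of limb and skeletal tissues, had 7, 10 and 15 total reads at 0h, 9, 22 and 13 at 3h and 16, 17 and 11 at 24h. It passed the filter for T>C reads with counts of 5, 5 and 10 at 0h, 3, 8 and 4 at 3h and 9, 13 and 6 at 24h, and its log2 changes of -0.40 ± 0.88 at 3h and 0.47 ± 0.87 at 24h (SE) had adjusted p-values of 0.998 and 0.901 in DESeq2. With SEs of this size, a change in CYP26B1 was not detectable at this depth unless it was several fold. In total reads CYP26B1 stayed under the filter.

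Of the 10 genes, 6 were tested in T>C reads and 5 in total reads. In T>C reads at 3h, 2 of the 6 (RARA and CRABP2) were called against 1.79% of 12037 genes tested, both higher. At 24h, 3 of 6 were called (RARA and CRABP2 higher, CRABP1 lower) against 4.98%, and 24h against 3h 2 of 6 (RARB and CRABP2, both higher) against 1.14%. In total reads, 1 of 5 was called at 3h (RARA) against 1.89% of 11710 genes, 3 of 5 at 24h (RARA, RARB and CRABP2) against 15.0%, and 2 of 5 for 24h against 3h (RARB and CRABP2) against 5.39%. All calls in total reads were rises. The contrasts of 3h and of 24h share their 0h libraries. In T>C reads the median log2 change of the tested members was -0.11 at 3h and 0.55 at 24h, beside -0.01 and 0.00 over all genes tested.

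**Figure D2:**
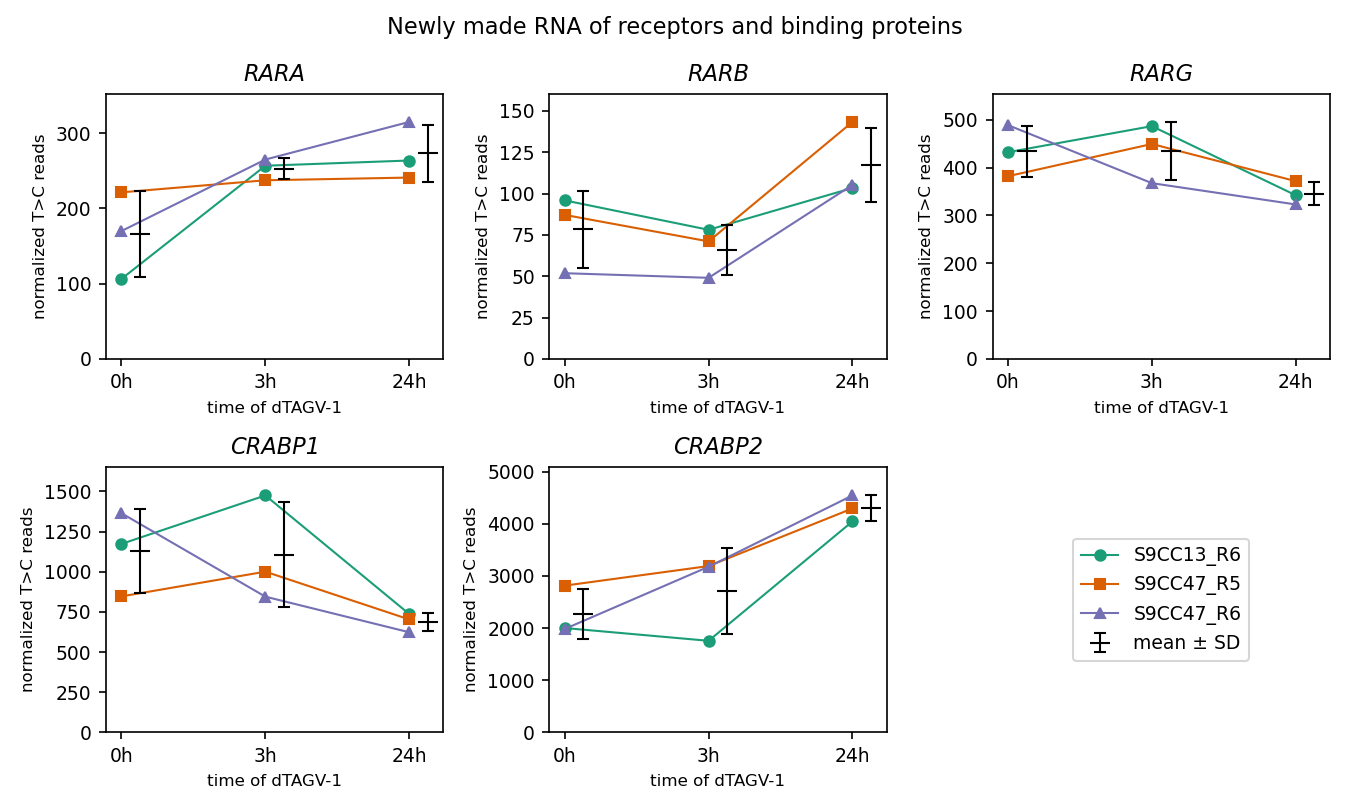
Normalized T>C reads of the 5 members with substantial counts at 0h, 3h and 24h of dTAGV-1, with one line for each culture and the mean ± SD of 3 libraries in black beside it; every axis starts at 0. RARA and CRABP2 at 24h lie above all 0h libraries, CRABP1 at 24h lies below all of them, and RARB departs from its 0h and 3h values only at 24h.

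RARA (chr17:40309180-40357643, plus strand), the most widely expressed of the receptors, rose in newly made RNA within 3h. With the cultures in the same order, normalized T>C reads were 106.3, 221.3 and 169.9 at 0h, then 256.7, 237.3 and 264.9 at 3h and 263.6, 240.9 and 314.9 at 24h. Every library at 3h and 24h was above every library at 0h, but the size of the step differed by culture, with log2 changes at 3h of 1.26 in S9CC13_R6, 0.64 in S9CC47_R6 and 0.10 in S9CC47_R5. The low 0h value of S9CC13_R6 and the high one of S9CC47_R5 gave the 0h group an SD of 57.6 around a mean of 165.8, against 14.1 around 253.0 at 3h. In the fit the log2 change was 0.69 ± 0.21 (SE, adjusted p = 0.0548) at 3h, or 1.61 fold, and 0.64 ± 0.21 (adjusted p = 0.069) at 24h, and 24h did not differ detectably from 3h (-0.05 ± 0.23, adjusted p = 0.986). Non-overlap of this kind, higher than 0h, was found in 5.72% of genes tested at 3h and 11.0% at 24h. With the culture as a block the 3h adjusted p-value was 0.186 and the 24h value 0.0184. Without culture S9CC13_R6 neither T>C call was made, with log2 changes of 0.34 at 3h and 0.19 at 24h, nor without its 3h library alone (0.48 and 0.45), without the 24h library of S9CC47_R6 (0.67 and 0.58) or with the GC tilt in place of the surrogate variable (0.66 and 0.53, adjusted p = 0.119 and 0.59). Without a surrogate variable the 3h call was lost as well (0.62, adjusted p = 0.296). Neither T>C call was made without S9CC47_R6, a fit that was possible only without that variable. RARA's transcript end has 61.7% GC, against a median of 40% over all genes.

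Total reads of RARA moved with the T>C reads. They were 249.3, 404.4 and 323.8 normalized reads at 0h, 516.4, 469.8 and 513.6 at 3h and 464.6, 453.9 and 549.3 at 24h, with no overlap of 0h with either later time, a separation seen at 3h in 4.29% of genes tested. The log2 change was 0.67 ± 0.15 (SE, adjusted p = 0.00156) at 3h and 0.53 ± 0.16 (adjusted p = 0.0155) at 24h in DESeq2, and with the culture as a block the adjusted p-values were 0.0278 and 0.00989. Reads without a conversion hold the older RNA, but also new RNA that shows no conversion. At 3h they also hold RNA made between the addition of dTAGV-1 and the start of labelling 1 h later. For RARA they rose at 3h by 0.70 ± 0.17 (adjusted p = 0.00729 in DESeq2, with 1.10% of 11529 genes called). At 24h they stood at 0.39 ± 0.18 (adjusted p = 0.189, with 12.1% called). A rise of older RNA cannot be read from these values. Both calls in total reads were lost without culture S9CC13_R6 (0.39 and 0.09) and without its 3h library alone (0.47 and 0.23). They were also lost without S9CC47_R6, in the fit without a surrogate variable. The 24h call was also lost without the 24h library of S9CC47_R6 (0.46, adjusted p = 0.144) and with the GC tilt as covariate (0.44, adjusted p = 0.415).

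RARB (chr3:24687887-25597932, plus strand), itself a target gene of the receptors, was the lowest of the receptors and the only one called for 24h against 3h. Normalized T>C reads were 95.9, 87.1 and 51.8 at 0h, 78.1, 71.0 and 49.0 at 3h and 103.4, 143.3 and 105.2 at 24h. All 3 libraries at 24h were above all others, S9CC13_R6 only narrowly above its own 0h value. The fit gave a log2 change of -0.33 ± 0.28 (SE, adjusted p = 0.951) at 3h, 0.75 ± 0.28 (adjusted p = 0.124) at 24h and 1.08 ± 0.31 (adjusted p = 0.0523) for 24h against 3h, the last being 2.12 fold, with rises of 0.40, 1.00 and 1.09 in the 3 cultures. Higher without overlap at 24h than at 3h were 8.91% of genes tested. Total reads were 193.8, 166.9 and 113.1 at 0h, 151.8, 176.3 and 101.3 at 3h and 224.1, 263.8 and 169.4 at 24h, and here the times overlapped because culture S9CC47_R6 was lower than the others at each time. The total log2 change was 0.63 ± 0.21 (adjusted p = 0.0317) at 24h and 0.88 ± 0.23 (adjusted p = 0.00682) against 3h. With the culture as a block the 24h call in total reads was lost (adjusted p = 0.111), while 24h against 3h was called in total reads (adjusted p = 0.0342) and in T>C reads (adjusted p = 0.051). Without a surrogate variable, all cultures kept, no RARB call was made, with log2 changes of 0.82 in T>C reads and 0.61 in total reads against 3h (adjusted p = 0.11 and 0.14) and of 0.46 in total reads at 24h (adjusted p = 0.272). Nor was any made with the GC tilt as covariate, at 0.98, 0.93 and 0.72 (adjusted p = 0.897, 0.244 and 0.275). With the surrogate variable kept, leaving out S9CC13_R6 or S9CC47_R5 ended all 3 calls, with log2 changes of 0.94 and 1.08, 0.74 and 1.03, and 0.72 and 0.73 in the same order, and the fit without S9CC47_R6 could be made only without that variable. The T>C call was also lost without the 24h library of S9CC47_R6 (1.06, adjusted p = 0.263), and the total call at 24h without the 3h library of S9CC13_R6 (0.86, adjusted p = 0.134).

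RARG (chr12:53210567-53232980, minus strand), the receptor prominent in craniofacial mesenchyme and cartilage, was the most abundant of the 3 and passed no test. Normalized T>C reads were 432.4, 382.1 and 489.0 at 0h, 486.9, 449.6 and 367.6 at 3h and 342.3, 371.8 and 323.0 at 24h. The 24h libraries were below the 0h libraries with a narrow gap, a separation also seen in 11.5% of genes tested, and 3h overlapped both. The log2 change was -0.06 ± 0.13 (SE) at 3h and -0.24 ± 0.14 at 24h (adjusted p = 0.998 and 0.481) in T>C reads, and -0.01 ± 0.09 and -0.11 ± 0.09 (adjusted p = 0.999 and 0.5) in total reads. The sign of the 24h value in total reads changed with the GC tilt as covariate (0.06).

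Reads of transcript 3′ ends do not scale with transcript length, so levels of the receptors are set side by side. Other differences between genes remain. The counted regions are not given, and T>C reads also depend on T content (20.7% of the last 300 bases in RARA, 38.3% in RARB and 32% in RARG). GC content of these ends was 61.7% in RARA, 50.7% in RARG and 33.3% in RARB, and the part of the GC tilt in the shares was not tested. RARG had more reads than RARA and RARA more than RARB in 9 of 9 libraries, in total and in T>C reads. Of the reads of the 3 receptors together, RARG took in total reads a share of 75.1% ± 4.35 (SD, n = 3) at 0h, 70.1% ± 2.07 at 3h and 64.0% ± 2.61 at 24h. RARA took 16.7% ± 4.03, 23.3% ± 2.93 and 24.9% ± 4.15, and RARB 8.16% ± 2.37, 6.58% ± 1.46 and 11.0% ± 1.89. In T>C reads the RARG share was 68.1%, 55.3% and 68.8% in the 0h libraries and 48.3%, 49.2% and 43.5% in the 24h libraries. The groups at 0h and 24h thus did not overlap for the RARG share in either measure, but the shares were not tested. Culture S9CC47_R5 kept its RARA share of T>C reads, with 32.0% at 0h and 31.9% at 24h. RARG's own change at 24h was not called in either measure. The 24h calls of RARA, and that of RARB in total reads, were lost without S9CC13_R6 and with the GC tilt as covariate. Their part in the RARG share was not tested.

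**Figure D3:**
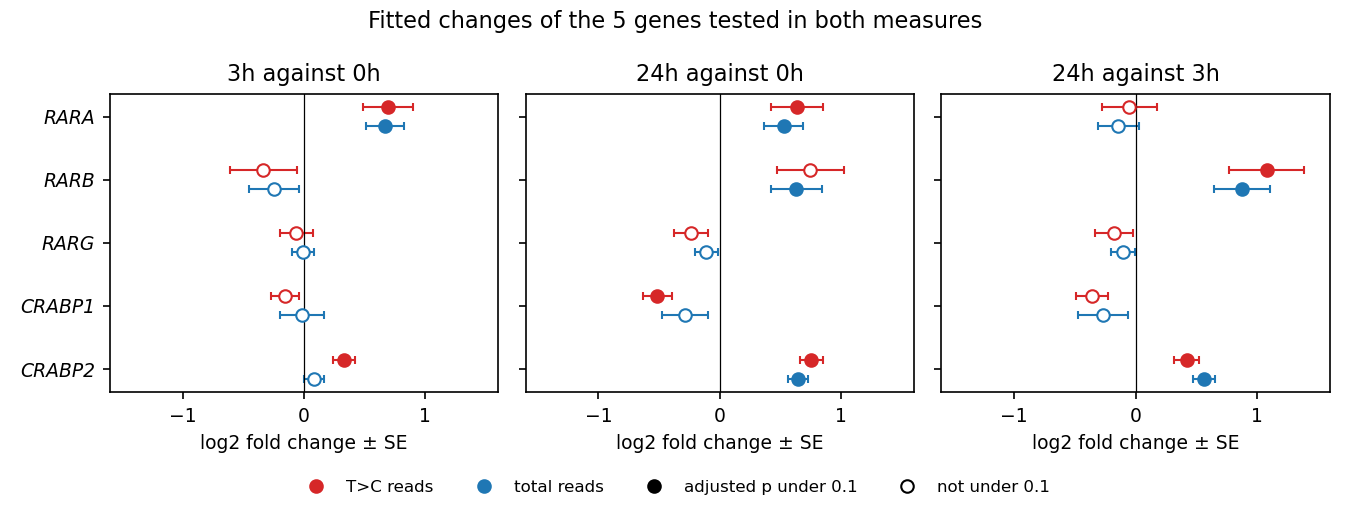
Log2 fold change with its standard error for the 5 members tested in both measures, from one DESeq2 fit of T>C reads (red) and one of total reads (blue), for the 3 contrasts of time; filled points have an adjusted p-value under 0.1. RARA is shifted to the right from 3h on, RARB between 3h and 24h, CRABP2 in the 24h contrasts of both measures, and CRABP1 is to the left in T>C reads at 24h.

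The binding proteins were by far the most abundant members. In T>C reads at 24h they were called in opposite directions, CRABP1 not under every alternative, while in total reads only CRABP2 was called. CRABP2 (chr1:156699606-156705816, minus strand) passes retinoic acid to the receptors in the nucleus. Its normalized T>C reads were 2000, 2814 and 1983 at 0h, then 1756, 3189 and 3176 at 3h and 4046, 4294 and 4544 at 24h. All 24h libraries lay above all 0h and 3h libraries and close to each other, while 3h overlapped 0h. At 24h the log2 change was 0.75 ± 0.10 (SE, adjusted p = 9.89e-13), or 1.69 fold, and every culture rose (1.02, 0.61 and 1.20). The call at 24h was made under every alternative tried for T>C reads, with log2 changes of 0.58 to 1.11, the lowest with the GC tilt as covariate (adjusted p = 0.0118). The change from 3h to 24h was 0.42 ± 0.10 (adjusted p = 0.00817) and was not called without S9CC13_R6 (0.24), without S9CC47_R5 (0.49) or with the GC tilt as covariate (0.27).

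At 3h the fit gave CRABP2 a log2 change of 0.33 ± 0.09 (SE, adjusted p = 0.0249), but the cultures did not move together. T>C reads fell by 0.19 on the log2 scale in S9CC13_R6 and rose by 0.18 in S9CC47_R5 and 0.68 in S9CC47_R6. The 3h library of S9CC13_R6 also had the lowest T>C share of all libraries and the most negative surrogate variable. Without this library the change was 0.41 (adjusted p = 0.00948), and without culture S9CC47_R5 it was 0.29 (adjusted p = 0.622). With the culture as a block and no surrogate variable it was 0.23 (adjusted p = 0.968), and with the GC tilt as covariate 0.31 (adjusted p = 0.35). The 3h call was made in every fit with a surrogate variable except that without S9CC47_R5, and in none of the fits without one.

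Total reads of CRABP2 were 11619, 20262 and 12963 normalized reads at 0h, 7350, 16663 and 20426 at 3h and 23442, 27801 and 36450 at 24h, again with all 24h libraries above the rest. The log2 change was 0.08 ± 0.08 (SE, adjusted p = 0.949) at 3h, 0.64 ± 0.08 (adjusted p = 1.84e-12) at 24h and 0.56 ± 0.09 (adjusted p = 6.53e-08) for 24h against 3h in DESeq2. Higher at 24h than at 0h without overlap were 13.6% of genes tested, and higher than at 3h 10.8%. With the culture as a block the 24h change was 0.97 (adjusted p = 0.0205). It was not called without S9CC13_R6 (0.28), without a surrogate variable and the block, or with the GC tilt as covariate (0.25, adjusted p = 0.909). The change from 3h to 24h was likewise not called without S9CC13_R6 (0.20), without a surrogate variable and the block (1.00, adjusted p = 0.151), without covariates (0.98, adjusted p = 0.142) or with the GC tilt (0.25, adjusted p = 1.00). Reads without a conversion changed by -0.00 ± 0.08 at 3h and 0.63 ± 0.09 at 24h (adjusted p = 0.998 and 3.80e-11).

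CRABP1 (chr15:78340353-78348225, plus strand), the family member linked to sequestration and turnover of retinoic acid and a long used marker of migrating neural crest, was lower at 24h in newly made RNA. Normalized T>C reads were 1173, 846.5 and 1364 at 0h, 1475, 1000 and 844.9 at 3h and 736.7, 703.0 and 623.1 at 24h. The 24h libraries were below all others, as for 11.5% of genes against 0h and 9.32% against 3h, and S9CC47_R6 had made most of its step by 3h while the other cultures were still at or above their 0h level. The log2 change was -0.16 ± 0.12 (SE, adjusted p = 0.933) at 3h and -0.51 ± 0.12 (adjusted p = 0.00185) at 24h, a fold of 0.70, with changes of -0.67, -0.27 and -1.13 by culture. For 24h against 3h it was -0.36 ± 0.13 (adjusted p = 0.276), and -0.66 (adjusted p = 0.00918) with the culture as a block. The 24h call was lost without S9CC13_R6 (-0.26), without S9CC47_R6 and a surrogate variable (-0.47), and with the GC tilt as covariate (-0.23, adjusted p = 0.757). The GC content of the transcript end was 52.7% for CRABP1 and 49% for CRABP2, against the median of 40%.

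Total reads of CRABP1 were 22081, 16141 and 25483 normalized reads at 0h, 28631, 20743 and 17502 at 3h and 15351, 16095 and 14889 at 24h. The 24h libraries were again the lowest, as for 15.1% of genes against 0h and 10.7% against 3h, by a margin of under 50 reads against S9CC47_R5 at 0h, and the log2 change of -0.29 ± 0.19 (SE) at 24h was not called (adjusted p = 0.377). Reads without a conversion changed by -0.26 ± 0.18 (adjusted p = 0.429).

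Within a library the ratio of CRABP2 to CRABP1 reads needs no size factor, but other differences between libraries can remain in it. In T>C reads it was 1.71, 3.32 and 1.45 at 0h, 1.19, 3.19 and 3.76 at 3h and 5.49, 6.11 and 7.29 at 24h. Every 24h library exceeded every earlier one, whereas 3h spanned the 0h range, with S9CC13_R6 going down and S9CC47_R6 up. In total reads the ratio was 0.526, 1.26 and 0.509 at 0h, 0.257, 0.803 and 1.17 at 3h and 1.53, 1.73 and 2.45 at 24h. CRABP1 reads thus outnumbered CRABP2 reads in 2 of 3 libraries at 0h and at 3h and in 0 of 3 at 24h. The lowest T>C ratio, 1.19, was in the library with the lowest surrogate variable (-0.71). The highest, 7.29, was in that with the highest (0.54), which also had the lowest GC tilt (-0.36). The part of the surrogate variable and of the GC tilt in the ratio was not tested. The ratio joins members with known changes and is given with no test.

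**Figure D4:**
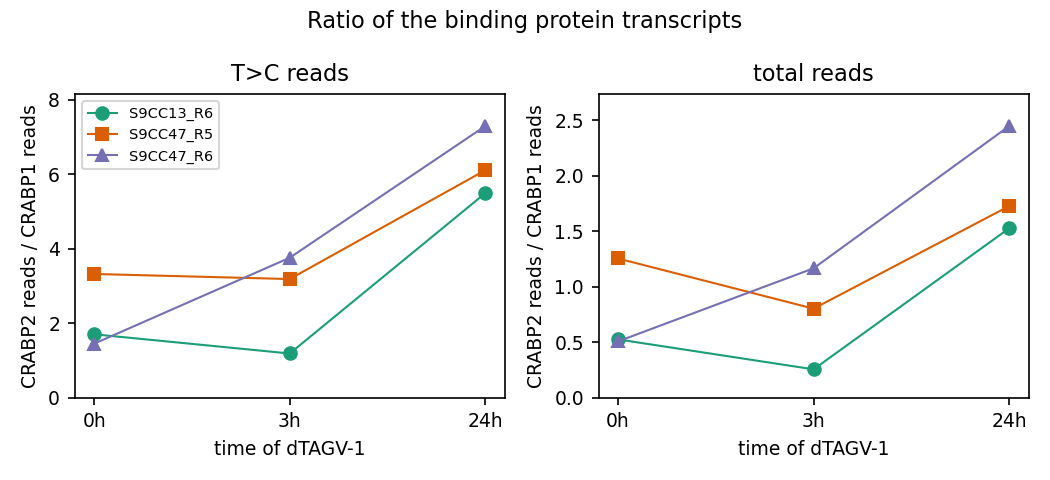
Ratio of CRABP2 to CRABP1 reads in each library, in T>C reads (left) and total reads (right), against time of dTAGV-1, with one line per culture and axes that start at 0. The 24h libraries, at 5.49 to 7.29 in T>C reads and 1.53 to 2.45 in total reads, are above all 0h and 3h libraries.

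The members differed in the share of their reads that carried T>C conversions. At 0h, T>C reads made up 50.9% ± 8.66 (SD, n = 3) of RARA reads, 50.0% ± 4.75 of RARB reads and 30.0% ± 1.17 of RARG reads, against 15.7% ± 0.972 for CRABP2 and 5.39% ± 0.216 for CRABP1. Over 9831 genes with a mean of at least 100 total reads the median at 0h was 26.8%. RARA and RARB stood at percentiles 88.6 and 87.7 of these genes, CRABP2 at 22.3 and CRABP1 at 1.54. A gene's share depends on the turnover of its RNA and on how many T bases its reads hold, and the last 300 transcript bases have 20.7% T in RARA, 38.3% in RARB, 28% in CRABP1 and 26.3% in CRABP2, with a median of 30.7% over all genes. At 24h the shares were 59.5% ± 3.57 for RARA, 58.1% ± 11.0 for RARB, 29.3% ± 3.05 for RARG, 16.0% ± 1.95 for CRABP2 and 4.75% ± 0.128 for CRABP1. At 3h they were 47.4% ± 5.30 for RARA, 43.5% ± 5.09 for RARB and 26.8% ± 2.82 for RARG. For CRABP2 the 3h share was 18.0% ± 2.18 and for CRABP1 4.61% ± 0.279. The mean shares of all but CRABP2 were thus lower at 3h than at 0h. The T>C share of whole libraries also varied, from 15.9% to 21.3%, and its part in these shares was not tested.

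The other genes of the pathway came from 3 lists with 80 further genes, for uptake, storage and metabolism, for RXR partners and coregulators, and for retinoic acid responsive genes. Of the 44 tested in T>C reads, 2 were called at 3h (1 higher, 1 lower) against 1.79% of all genes tested, 5 at 24h (3 higher, 2 lower) against 4.98% and 1 for 24h against 3h (higher) against 1.14%. Their median log2 change was 0.06 at 3h and 0.00 at 24h. In total reads, 1 of 43 was called at 3h against 1.89%, 11 at 24h, 5 of them higher, against 15.0%, and 5 for 24h against 3h, 1 of them higher, against 5.39%. The last 5 were CYP1B1 (1.44), DHRS3 (-1.41), LPL (-1.38), ZNF703 (-0.49) and RDH13 (-0.49), on the log2 scale. The call of LPL was lost with the culture as a block (-0.88, adjusted p = 0.221), those of LPL, ZNF703 and RDH13 with the GC tilt as covariate, and, in fits with a surrogate variable, those of all but CYP1B1 without S9CC13_R6 and without S9CC47_R5.

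Of the list for uptake, storage and metabolism, 19 genes were tested in T>C reads. At 3h 1 was called, against 1.79% of all genes tested. At 24h 3 were called against 4.98%, and for 24h against 3h 1 against 1.14%. DHRS3, the reductase that returns retinal to retinol and a gene that retinoic acid induces, fell most. Its normalized T>C reads were 90.6, 65.3 and 76.2 at 0h, 39.7, 18.2 and 33.8 at 3h and 14.2, 11.4 and 8.15 at 24h, so that the 3 times did not overlap at all (lower at 3h than at 0h without overlap were 5.62% of genes tested). The log2 change was -1.44 ± 0.37 (SE, adjusted p = 0.00958) at 3h and -2.68 ± 0.43 (adjusted p = 9.13e-08) at 24h, and in total reads -1.26 ± 0.23 and -2.67 ± 0.27 (adjusted p = 8.55e-06 and 6.78e-21). The 3h call in T>C reads was lost without S9CC13_R6 (-1.48), without S9CC47_R5 (-1.21), without S9CC47_R6 and a surrogate variable (-1.50), and without the 3h library of S9CC13_R6 alone (-1.49, adjusted p = 0.108), with log2 changes of -1.54 to -1.18 over all alternatives. The 24h call was lost without S9CC13_R6 (-2.87) in the fit with a surrogate variable and was made in the other fits. In total reads the 3h call was lost without S9CC13_R6 (-1.21, adjusted p = 0.482) and, in the fit without a surrogate variable, without S9CC47_R5. The 24h call was made in all 18 alternatives.

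STRA6, the membrane receptor that takes up retinol from its carrier, fell at 24h. Its T>C reads were 287.6, 261.2 and 241.5 at 0h, 306.9, 193.2 and 145.9 at 3h and 165.0, 120.5 and 98.5 at 24h, with 24h below all 0h libraries. The log2 change was -0.80 ± 0.19 (SE, adjusted p = 0.00158) at 24h and -0.50 ± 0.18 (adjusted p = 0.234) at 3h. The call was lost without S9CC13_R6 (-1.09), without S9CC47_R5 (-0.51) and with the GC tilt as covariate (-0.59, adjusted p = 0.489). CYP1B1, a cytochrome that can oxidise retinol and retinal besides other substrates, went the other way, at 56.3, 62.9 and 71.6 at 0h, 49.0, 58.0 and 82.9 at 3h and 212.4, 175.5 and 185.2 at 24h. Its log2 change was 0.03 ± 0.26 (adjusted p = 0.998) at 3h and 1.47 ± 0.25 (adjusted p = 8.18e-07) at 24h, and 24h exceeded 3h by 1.44 ± 0.27 (adjusted p = 5.78e-05). Without S9CC13_R6 these calls were lost at 1.39 and 1.34, and without S9CC47_R5 the second was lost at 1.38. RDH10, which makes retinal from retinol, had 2.06 to 5.39 CPM in total reads and a T>C change of -0.09 ± 0.54 at 24h (adjusted p = 0.973).

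**Figure D5:**
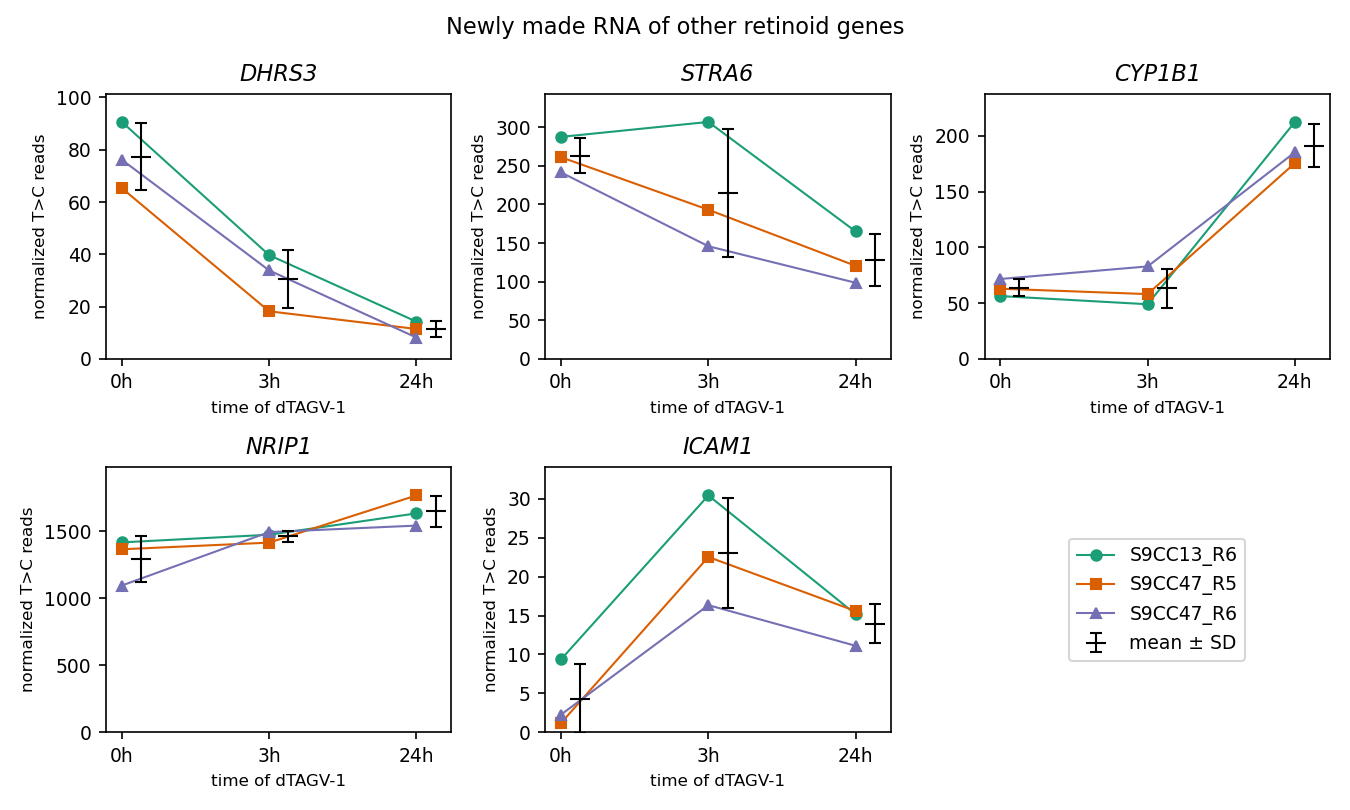
Normalized T>C reads of the 5 other retinoid genes called in T>C reads, by time of dTAGV-1, one line per culture with the mean ± SD of 3 libraries in black and axes that start at 0. DHRS3 falls at each step in all 3 cultures, STRA6 is lowest at 24h, and CYP1B1 leaves its earlier range only at 24h.

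Among the receptor's partners, in T>C reads 1 of 20 tested was called at 24h, close to the 4.98% of all genes tested, and 0 at 3h, where 1.79% were. This gene, NRIP1, a corepressor that binds liganded receptors and is induced by retinoic acid, had T>C reads of 1418, 1366 and 1096 at 0h and 1635, 1768 and 1543 at 24h, a log2 change of 0.37 ± 0.11 (SE, adjusted p = 0.0265), which was not called without S9CC13_R6 (0.31), without S9CC47_R5 (0.38), without S9CC47_R6 and a surrogate variable (0.29), without the 3h library of S9CC13_R6 (0.38) or with the GC tilt as covariate (0.31, adjusted p = 0.475). RXRA, the main partner of the RARs in many tissues, had a median of 50.1 CPM in total reads and RXRB 23.9, whereas RXRG had 13 reads in all libraries together. T>C changes of RXRA (-0.00 ± 0.17 at 3h, -0.05 ± 0.17 at 24h) and of RXRB (0.36 ± 0.18 and 0.04 ± 0.19) passed no test in DESeq2 (adjusted p of 0.665 or more).

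Of 31 listed genes known to respond to retinoic acid, 9 were tested in T>C reads and 17 had under 10 total reads in all libraries together. The 13 HOX genes among them, the 3′ members of the clusters that retinoic acid switches on in the hindbrain and trunk, had 55 total reads in all, at most 13 for a single gene (HOXB3) and 0 for 4 of them. In T>C reads 2 of the 9 were called at 3h (DHRS3 lower and ICAM1 higher), against 1.79% of all genes tested. At 24h 4 were called (DHRS3 and STRA6 lower, NRIP1 and ICAM1 higher), against 4.98%. These calls are among those of the 3 lists given above, and DHRS3, STRA6 and NRIP1 also stood in another list. The median log2 change was 0.17 at 3h and -0.06 at 24h. ICAM1, an adhesion molecule that inflammatory signals also induce, rested on few reads, with normalized counts of T>C reads of 9.38, 1.21 and 2.29 at 0h, 30.4, 22.5 and 16.3 at 3h and 15.2, 15.6 and 11.1 at 24h. Its log2 change was 2.33 ± 0.71 (SE, adjusted p = 0.0662) at 3h and 2.13 ± 0.74 (adjusted p = 0.0874) at 24h, and total reads gave no call. Neither T>C call was made without S9CC13_R6 (3.61 and 3.67), without S9CC47_R5 (1.95 and 1.74), or without the 3h library of the first (2.87 and 2.74) or the 24h library of S9CC47_R6 (2.30 and 2.14). The 24h call was also lost with the culture as a block (1.86, adjusted p = 0.127), without a surrogate variable (1.75, adjusted p = 0.186) and with the GC tilt as covariate (2.33, adjusted p = 0.324).

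Patterns most like each member were sought among the 8675 other genes whose mean was 50 normalized T>C reads or more, by Pearson's r of log2(reads + 1) over the 9 libraries. The highest r for RARA was with POU3F1 (0.97), TVP23B (0.97) and PPTC7 (0.94), and for RARB with NAPG, WAPL and FUCA2 (0.92, 0.92 and 0.90). RARG was most like TUBB4B, PRELID1 and RPL37 (0.98 each), CRABP1 like PRELID1, NDST1 and ATP6V1F (0.97, 0.97 and 0.96), and CRABP2 like PIP4P2, STX18 and RNF138 (0.98, 0.98 and 0.97). PRELID1 was thus among the nearest 3 of both RARG and CRABP1. These values describe libraries that share culture, depth and GC tilt, and carry no test.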

How the data were processed

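The authors mapped and counted reads with slamdunk and deposited 2 tables of raw counts per gene symbol, one of all reads and one of reads with T>C conversions, with 9 columns each. The submitters' processing notes name hg38, and the counted regions and the use of strand are not given in the sources used here. The 9 samples were grouped by time from their titles. Coordinates came from GENCODE release 44, matched by symbol. Following the study's methods, one DESeq2 fit (version 1.42.0, R 4.3.3) per table held time, differentiation batch and 1 surrogate variable (svaseq, sva 3.50.0), restricted to protein-coding genes that reached 1 CPM in at least 3 libraries, without independent filtering. A call was a Benjamini-Hochberg adjusted p-value below 0.1 over all genes tested. Unconverted reads are total minus T>C reads. Depth limits the enzymes most, and no molecular identifiers were stated, so intervals cover counting error only. Nothing says that the cultures were independent beyond clone and batch. The main p-values measure the spread left between these libraries after batch and the surrogate variable were fitted. That variable was estimated from the same 9 libraries, so this spread can be smaller than that between the cultures. Alternatives were edgeR 4.0.16 with TMM, TMM factors, no surrogate variable, the culture as a replicate block, no covariates, other filters and thresholds, fewer samples and size factors from total reads. Leave-one-out fits without a surrogate variable, fits without the 3h library of S9CC13_R6 or the 24h library of S9CC47_R6, and the GC tilt as covariate were chosen after seeing the data. The scripts were tested on simulated data. The culture in the sample titles pairs samples across times; deviations from the time means correlated at 0.02 to 0.29 in T>C reads and -0.06 to 0.61 in total reads within cultures. The genes and lists were chosen with earlier results of these data known. Genes named are the 10 members, SOX9, called genes of the 3 pathway lists in T>C reads (at most 6 a list), RDH10, DHRS3, RXRA, RXRB and RXRG, and the 3 genes most like each member with at least 50 normalized T>C reads. POU5F1, LIN28A, DPPA4, SOX10, MSX1, HOXB3, LPL, ZNF703 and RDH13 were named after their values were seen.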

Additional observations from a re-analysis of the deposited data

Results flagged for a closer look

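Among the members and the pathway genes, 7 genes responded differently to dTAGV-1 at 3h and 24h in at least one measure, by the test of 24h against 3h in DESeq2. In T>C reads the 24h effect exceeded the 3h effect by 0.42 (log2) for CRABP2, 1.08 for RARB and 1.44 for CYP1B1, each in 3 of 3 cultures. In total reads it did so by 0.56 for CRABP2, 0.88 for RARB and 1.44 for CYP1B1, again in 3 of 3 cultures, and the 24h effect lay below the 3h effect by a log2 difference of -1.41 for DHRS3, -1.38 for LPL, -0.49 for RDH13 and -0.49 for ZNF703. Of these calls only that of CYP1B1 in total reads was made in every alternative tried. Those of CRABP2 and RARB in total reads were lost without a surrogate variable, without covariates, without S9CC13_R6 and with the GC tilt as covariate. The 2 clones moved in opposite directions for CRABP2 in T>C reads at 3h, where S9CC13 changed by -0.19 while both cultures of S9CC47 rose. That difference between clones was not tested, and S9CC13 is 1 culture.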

How the results depend on the processing

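Counts of called members and pathway genes were small and moved easily. At 3h, 2 members were called in T>C reads, 1 at an adjusted p-value under 0.05, with only the 6 samples compared or with size factors from total reads, and 0 without a surrogate variable, with the culture as a replicate block, without covariates or with the GC tilt in place of the surrogate variable. At 24h the GC tilt left 1 of 3 members in T>C reads and 2 of 5 pathway genes, and edgeR called 8 pathway genes. Pathway genes at 3h numbered 1 of 2 at an adjusted p-value under 0.05 and with only 6 samples. For 24h against 3h in T>C reads, 1 of 2 members was called at under 0.05 or with 6 samples and 0 with the GC tilt. In total reads, 1 of 3 members was called at 24h and 1 of 2 for 24h against 3h without a surrogate variable or without covariates, and 0 with the GC tilt. Without one culture or library, members called ranged from 0 to 1 at 3h, 1 to 3 at 24h and 0 to 2 for 24h against 3h in T>C reads, and from 0 to 1, 0 to 2 and 0 to 2 in total reads, and pathway genes from 0 to 1 at 3h and 0 to 4 at 24h. The fit without S9CC47_R6 gave no surrogate variable and was run only without one. Beyond the blocked values given beside results, the replicate block also called STRA6 and DHRS3 in T>C reads for 24h against 3h (adjusted p = 0.0168 and 0.0388), as well as ZNF703 there (adjusted p = 0.000646) and STRA6 in total reads (adjusted p = 9.86e-07).

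No called change of a member or pathway gene turned its sign in 517 values over 28 results, of which 347 were called as before and 170 were not. Signs turned only for changes that were not called. RARA in T>C reads from 3h to 24h became 0.117 without a surrogate variable, 0.111 with the replicate block, 0.114 without covariates, 0.0463 with 6 samples and 0.00392 with size factors from total reads. In total reads at 3h, RARG became 0.0528, 0.0421, 0.0518 and 0.0181 and CRABP1 0.0816, 0.0632, 0.070 and 0.0243 without a surrogate variable, with the replicate block, without covariates and with the GC tilt, and CRABP2 became -0.0966, -0.0130 and -0.00753 with the last 3 of these. With the GC tilt RARG in total reads became 0.0633 at 24h and 0.0452 against 3h. Leaving out a culture with the surrogate variable kept gave, in T>C reads for 24h against 3h, -0.149 to 0.0293 for RARA and -0.180 to 0.0310 for RARG. In total reads it gave RARG -0.0974 to 0.0630 for 24h and -0.0742 to 0.0680 for 24h against 3h, and CRABP1 -0.0919 to 0.00153 for 3h, -0.379 to 0.190 for 24h and -0.287 to 0.189 for 24h against 3h; RARG for 3h lay at -0.0231 without S9CC47_R5. Without a surrogate variable, RARA in T>C reads for 24h against 3h became 0.145, 0.152 and 0.0351 without S9CC13_R6, S9CC47_R5 and S9CC47_R6, and 0.0290 in total reads without the first. Without S9CC47_R6, RARG and CRABP1 for 3h became 0.199 and 0.285 in T>C reads and 0.208 and 0.364 in total reads, and CRABP2 -0.460. Without the 3h library of S9CC13_R6, RARG in total reads became 0.0214 for 3h and 0.00958 for 24h. The cause of these shifts was not tested.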
